A study of Mus musculus with 16 samples.

Results

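Genes of the interleukin-1 (IL-1) family and the inflammasome were followed in B16F10 tumors of mice treated with α-ketoglutarate (α-KG), an anti-PD1 antibody, or both. The 10 genes were chosen by name: the ligands Il1a and Il1b, the antagonist Il1rn, the receptors Il1r1 and Il1r2, the sensors Nlrp3 and Aim2, the caspases Casp1 and Casp4, and the pore-forming protein Gsdmd. The choice was made with earlier results of these data known, so the shares of these genes called below are a description. All 10 had a row in the deposited table of 18929 genes. In α-KG tumors Il1b, Il1a, Il1rn, Il1r2 and Nlrp3 reached levels far above every other group, and all 5 were lower again in the α-KG + anti-PD1 group. Casp1 and Gsdmd were highest in the α-KG + anti-PD1 group, and Casp4 stood at similar levels in both groups that received α-KG.

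B16F10 is an established mouse melanoma line, and its cells were injected at the right abdomen of C57BL/6 females aged 7 to 8 weeks. Treatment by intraperitoneal injection began at about 50 cubic millimeters and lasted 9 to 11 days, with 6 mice in each group. RNA was measured in 4 independent tumors from each of 4 groups, 16 tumors in all. The groups were vehicle (corn oil with an IgG isotype control, by the study's account), the anti-PD1 antibody, α-KG at 100 mg/kg, and both together (α-KG + anti-PD1, or the combination). Which other groups also received corn oil or the IgG2a antibody is not given in the sources used here. Every tumor came from the same transplanted line in young female hosts with their own immune system, and each was sequenced as whole tissue.

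IL-1α and IL-1β are inflammatory cytokines that act through the receptor encoded by Il1r1, and monocytes, macrophages and neutrophils are major sources of IL-1β. IL-1β is made as an inactive precursor, which caspase-1 cleaves after a sensor such as NLRP3 or AIM2 has assembled an inflammasome. Caspase-1 also cleaves gasdermin D, whose freed end forms pores in the cell membrane, and caspase-4 (caspase-11 in the mouse literature) cleaves gasdermin D after binding bacterial lipopolysaccharide. The antagonist encoded by Il1rn occupies the IL-1 receptor without signaling, and the decoy receptor encoded by Il1r2 binds IL-1 without passing a signal on.

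Values are FPKM, fragment counts scaled for gene length and library size, so levels of different genes may be set side by side. The summed FPKM of a tumor ran from 514180 to 654772, with the α-KG + anti-PD1 tumors lowest at 514180 to 527812, and read depth is unknown. The 7 melanocyte markers (Pmel, Mlana, Tyr and others) summed to between 7845 and 10572 FPKM, so the labelled melanoma tissue showed its defining genes in all 16 tumors. The 7 red cell markers summed to 63152 to 107460 FPKM in vehicle, 23319 to 145327 under anti-PD1, 28329 to 99374 under α-KG and only 10892 to 11752 with the combination, below every tumor of the other groups. The 7 skeletal muscle markers summed to 52.8 to 693 in vehicle, 2.57 to 4.11 under anti-PD1, 3.46 to 4.21 under α-KG and 4.26 to 66.3 with the combination, so the anti-PD1 and α-KG tumors lay below all vehicle tumors. The part of both lists in the differences of the 10 genes was not tested. In whole tumors, fewer cells of a type and less RNA per cell cannot be told apart.

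The 120 bases before a RefSeq start site are shown for Il1b and Il1a because these neighbouring ligand genes moved together. A TATAAA box is in capitals in each, and an AP-1 motif (TGANTCA) is also in capitals in Il1a. For both genes the start site used lies inside the gene span given below. The Il1a stretch therefore falls wholly within its gene, and the Il1b stretch overlaps its gene in part. A stretch of the same length is shown for Il1rn, from position -160 to -41, with its AP-1 motif in capitals. The Casp4 stretch carries an NF-kB consensus match in capitals. All are RefSeq sequence of build GRCm38.p6, read 5′ to 3′ on the strand of the gene, at chr2:129371140-129371259 (minus strand) for Il1b, chr2:129309973-129310092 (minus) for Il1a, chr2:24336700-24336819 (plus) for Il1rn and chr9:5308729-5308848 (plus) for Casp4.
Il1b: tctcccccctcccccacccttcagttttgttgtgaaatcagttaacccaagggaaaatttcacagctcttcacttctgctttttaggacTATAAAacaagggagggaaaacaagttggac
Il1a: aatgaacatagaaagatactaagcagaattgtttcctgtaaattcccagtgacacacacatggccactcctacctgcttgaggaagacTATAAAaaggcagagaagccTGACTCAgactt
Il1rn: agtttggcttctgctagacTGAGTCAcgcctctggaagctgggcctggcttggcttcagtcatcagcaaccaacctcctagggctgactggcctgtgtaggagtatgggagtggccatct
Casp4: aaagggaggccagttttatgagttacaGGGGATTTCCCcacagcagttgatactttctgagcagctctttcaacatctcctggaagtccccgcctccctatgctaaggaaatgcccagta

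RefSeq gave 14 promoter windows of 300 bases (250 before and 50 after the start site) for 9 of the 10 genes, and none was used for Gsdmd. Both strands were searched for 5 motifs. TATAAA was found for Il1a (at -32), Il1b (at -31) and Il1rn, and in 13.6% of all 32851 mouse windows of this length. The Il1rn match was on the opposite strand, at position 14 after another Il1rn start site than the one used above. All shares here are per window, and some genes had more than 1 window. TGANTCA was found for Il1a and Il1rn (7.81% of all windows), and the NF-kB consensus for Casp4, Il1r1 and Nlrp3 (4.51%). The GAS motif TTCNNNGAA was found for Il1r2 (8.30%), and the ISRE consensus (3.44%) was in none of the 14 windows. These are matches of letters and do not show binding. The ligand genes lie side by side on chromosome 2, with Il1a at 129299609 to 129310186 and Il1b at 129364569 to 129371164, 54382 bases apart. Il1rn lies on the same chromosome at 24336860 to 24351491. Casp1 (chromosome 9, 5298517 to 5307281) and Casp4 (5308849 to 5336791) are separated by only 1567 bases.

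The ligands had their highest levels in α-KG tumors. Il1b was at 2.32, 6.19, 1.79 and 1.46 FPKM in the 4 vehicle tumors, 4.29, 13.5, 3.75 and 6.04 under anti-PD1, 384, 276, 481 and 722 under α-KG, and 20.2, 6.91, 12.4 and 48.4 with the combination. The lowest α-KG tumor was thus above the highest tumor of every other group. Group means were 2.94 ± 2.20, 6.89 ± 4.50, 466 ± 190 and 22.0 ± 18.4 FPKM in the same order (SD, n = 4 each), so the levels ascended from vehicle through anti-PD1 and the combination to α-KG, and of neighbouring groups in that order only the combination and α-KG differed past the threshold of the test below.
Il1a was much lower than Il1b in all 16 tumors but followed the same order, at 0.48, 0.45, 0.17 and 0.24 FPKM in vehicle, 0.51, 0.82, 0.67 and 1.25 under anti-PD1, 30.3, 14.6, 38.8 and 60.6 under α-KG, and 3.01, 1.09, 2.26 and 8.70 with the combination. Again α-KG tumors did not overlap any other group, and tumor 2 was the lowest and tumor 4 the highest of the α-KG group for both ligands.

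**Figure D1:**
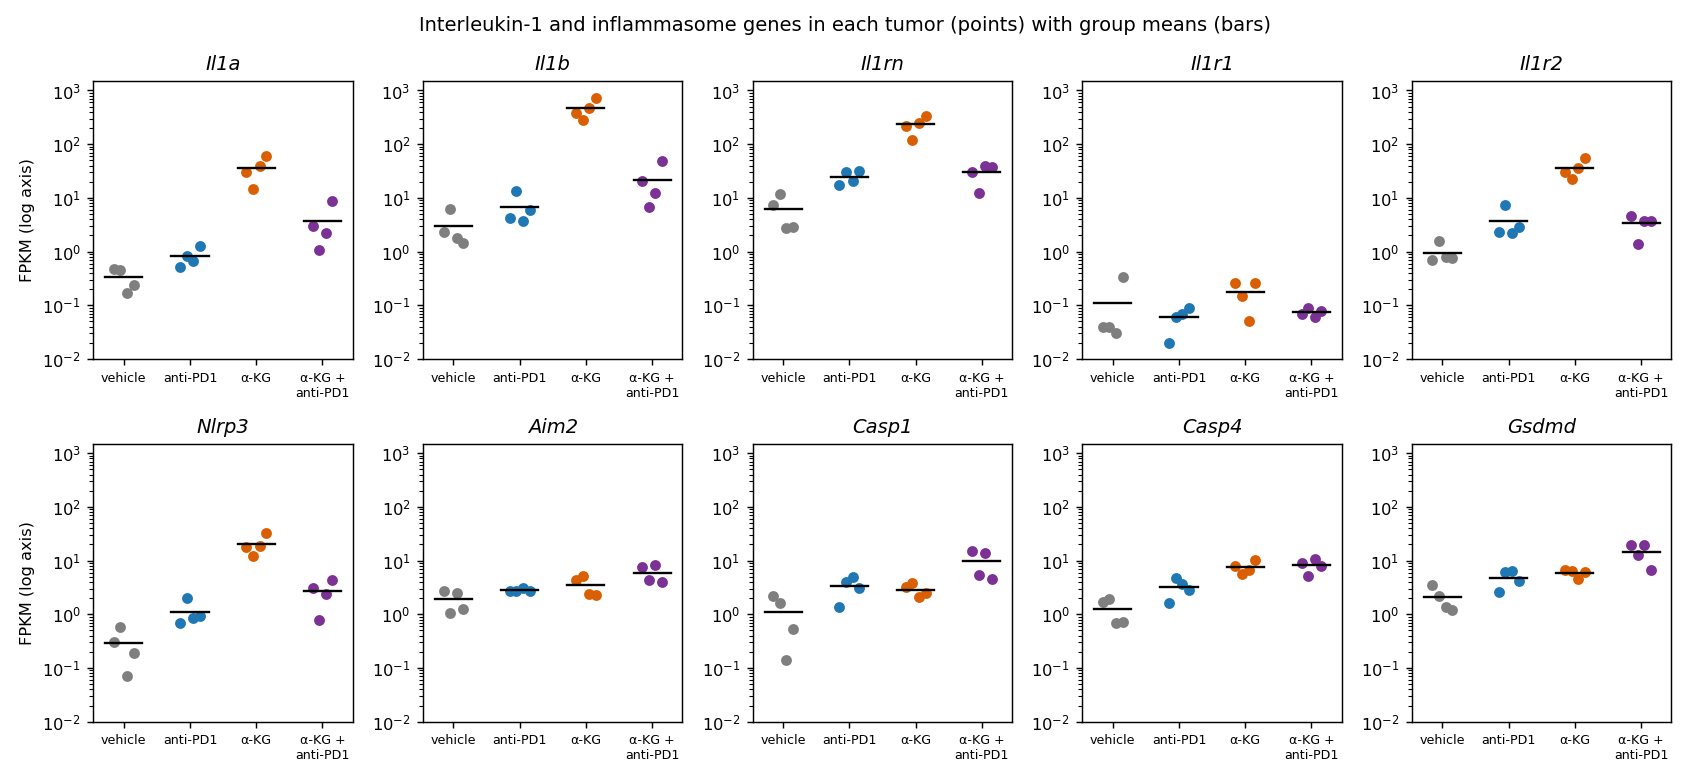
FPKM (log axis) of the 10 genes in each of 16 tumors, by group, with points for tumors 1 to 4 from left to right and bars for arithmetic group means. Il1b means were 2.94, 6.89, 466 and 22.0 FPKM from the left group to the right, while the Gsdmd mean was highest, 14.5 FPKM, in α-KG + anti-PD1.

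The genes that restrain IL-1 rose with the ligands. Il1rn was at 7.42, 11.7, 2.75 and 2.89 FPKM in vehicle, 17.4, 30.2, 20.2 and 32.1 under anti-PD1, 222, 119, 253 and 337 under α-KG, and 30.4, 12.1, 40.1 and 37.0 with the combination. All anti-PD1 tumors lay above all vehicle tumors, and the anti-PD1 and α-KG + anti-PD1 tumors overlapped. Il1r2 was at 0.70, 1.55, 0.79 and 0.77 FPKM in vehicle, 2.33, 7.33, 2.18 and 2.86 under anti-PD1, 31.0, 22.8, 35.3 and 54.4 under α-KG, and 4.68, 1.41, 3.72 and 3.71 with the combination. α-KG tumors again stood alone, and the α-KG + anti-PD1 mean (3.38 ± 1.39) was close to that of anti-PD1 (3.68 ± 2.45). Il1r1, which encodes the receptor that signals, did not reach the filter of 0.5 FPKM in at least 4 tumors and was not tested. Its highest value in any tumor was 0.33 FPKM, and its group means were 0.110 ± 0.147 in vehicle, 0.060 ± 0.029 under anti-PD1, 0.180 ± 0.101 under α-KG and 0.075 ± 0.013 with the combination, and no difference in Il1r1 could be resolved at these levels.

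The inflammasome sensors differed from each other. Nlrp3 was at 0.31, 0.58, 0.07 and 0.19 FPKM in vehicle, 0.70, 1.99, 0.85 and 0.93 under anti-PD1, 17.9, 12.2, 18.8 and 32.6 under α-KG, and 3.13, 0.80, 2.34 and 4.41 with the combination. This is the order of the ligands, with α-KG tumors apart from all others. Aim2, which senses DNA in the cytosol, was at 2.75, 1.05, 2.54 and 1.28 FPKM in vehicle, 2.75, 2.74, 3.04 and 2.69 under anti-PD1, 4.40, 5.20, 2.39 and 2.31 under α-KG, and 7.56, 4.28, 8.18 and 3.94 with the combination. Aim2 values stayed within 1.05 to 8.18 FPKM, and α-KG tumors overlapped those of vehicle.

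The caspases and gasdermin D, which act downstream of the sensors, did not stand apart in α-KG tumors as Il1b did. Casp1 was at 2.20, 1.59, 0.14 and 0.54 FPKM in vehicle, 1.34, 3.98, 5.05 and 3.03 under anti-PD1, 3.17, 3.87, 2.06 and 2.46 under α-KG, and 15.3, 5.49, 13.9 and 4.49 with the combination. Every α-KG + anti-PD1 tumor exceeded every α-KG tumor for Casp1. Gsdmd was at 3.55, 2.24, 1.35 and 1.21 FPKM in vehicle, 2.56, 6.23, 6.30 and 4.22 under anti-PD1, 6.70, 6.35, 4.63 and 6.03 under α-KG, and 19.2, 12.9, 19.4 and 6.65 with the combination. For Gsdmd the lowest α-KG + anti-PD1 tumor, tumor 4, fell just within the α-KG range. Casp4 was at 1.67, 1.92, 0.69 and 0.73 FPKM in vehicle, 1.64, 4.69, 3.60 and 2.83 under anti-PD1, 8.02, 5.69, 6.65 and 10.3 under α-KG, and 9.08, 5.18, 10.6 and 8.05 with the combination. The α-KG and α-KG + anti-PD1 tumors overlapped for Casp4, and both groups lay above all vehicle tumors.

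The comparison of α-KG with vehicle asks what the metabolite alone did to these genes. Both ligands, the antagonist, the decoy receptor, Nlrp3, Casp4 and Gsdmd rose, and none of the 9 tested fell. Il1b rose by 6.94 ± 0.50 (SE) on the log2(FPKM + 1) scale, the second largest rise (rank 2) among 12850 genes tested, with an adjusted p of 1.91e-07. This scale understates the change of genes with low values, and the ratio of mean FPKM was 158 for Il1b, 108 for Il1a and 70.9 for Nlrp3. With limma, 7 of 9 genes tested were higher at an adjusted p under 0.05, against 8.40% of all genes tested called higher, and the median log2 fold change was 3.99 over the 9 against -0.04 over all genes. Calls over all genes were 1080 higher and 968 lower as deposited, 1039 and 1644 after quantile normalization, and 843 and 403 once FPKM sums were made equal. All 7 calls held under these scalings.
Il1rn rose by 5.12 ± 0.43 (adjusted p = 7.19e-07), Il1a by 4.64 ± 0.40 (1.05e-06), Il1r2 by 4.19 ± 0.32 (3.25e-07) and Nlrp3 by 3.99 ± 0.31 (3.47e-07). Casp4 rose by 1.96 ± 0.26 (7.78e-05) and Gsdmd by 1.22 ± 0.31 (0.0142). The Gsdmd call was lost without vehicle tumor 3 (adjusted p = 0.0518) or vehicle tumor 4 (0.0531). Casp1 (0.97 ± 0.39, adjusted p = 0.107) and Aim2 (0.65 ± 0.26, 0.0978) did not pass the test, although each passed without vehicle tumor 1 (0.0478 and 0.0496). For the 7 genes called, all 4 α-KG tumors lay above all 4 vehicle tumors, as did 10.1% of genes tested, and each had an exact two-sided permutation p of 0.029, the smallest that 70 divisions can give.

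Markers of other cells moved with these differences. The 14 neutrophil markers (S100a8, S100a9, Csf3r, Cxcr2 and others) summed to 29.9 to 45.8 FPKM in vehicle, 40.6 to 128 under anti-PD1, 1179 to 3136 under α-KG and 42.9 to 131 with the combination. All 12 that were tested were higher in α-KG than in vehicle, where 8.40% of all genes tested were called higher. A gene could pass the filter of 0.5 FPKM through the α-KG tumors alone, so this count may depend on the filter. Ly6g, a defining neutrophil gene, was listed at 0 in all vehicle tumors and Camp in all anti-PD1 tumors. No neutrophil marker was at 0 throughout the α-KG tumors or throughout the α-KG + anti-PD1 tumors. The 13 monocyte and macrophage markers (Adgre1, Csf1r, Lyz2, Cd68 and others) summed to 138 to 632, 672 to 1169, 1068 to 1388 and 980 to 2596 FPKM in the 4 groups in the same order, none of them at 0 throughout a group. Of these 13, 10 were higher in α-KG than in vehicle. The 8 pan-leukocyte markers (Ptprc, Coro1a and others) summed to 335 to 452, 451 to 664, 788 to 830 and 539 to 1357. All 7 skeletal muscle markers were called lower in α-KG than in vehicle. The part of these cells in the levels of Il1b, Il1a, Il1rn, Il1r2, Nlrp3, Casp4 and Gsdmd was not tested.

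**Figure D2:**
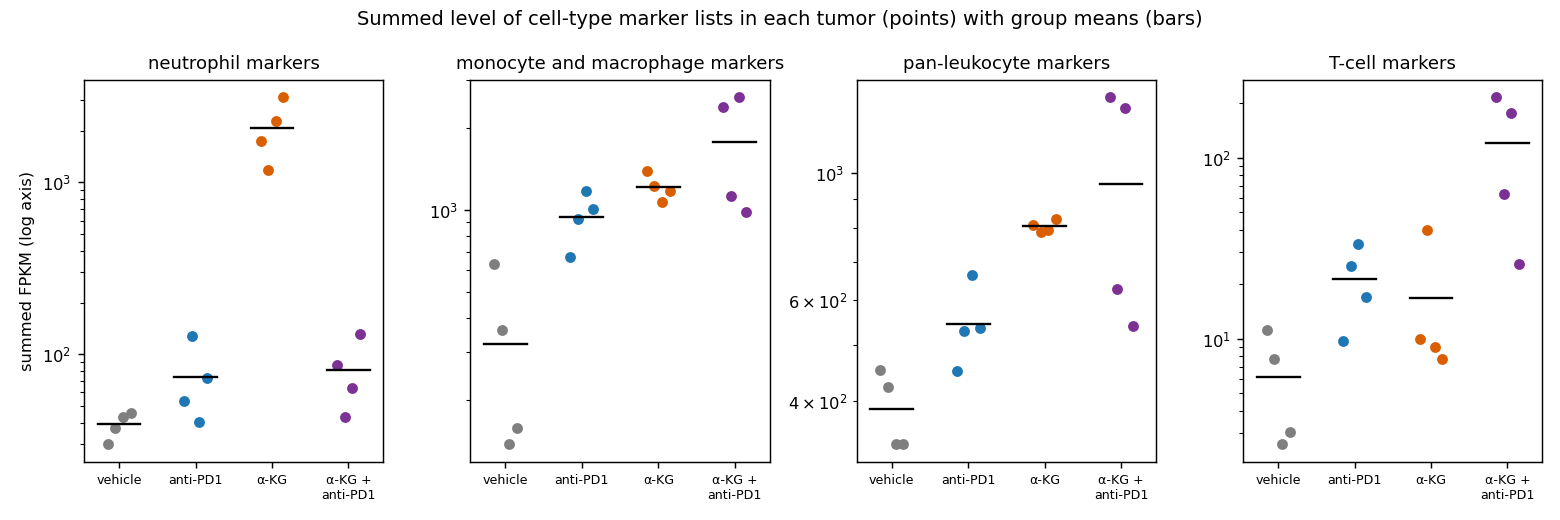
Summed FPKM (log axis) of 4 marker lists in each of 16 tumors, by group, with points for tumors and bars for group means. Neutrophil markers stood at 1179 to 3136 FPKM in α-KG tumors and at no more than 131 in any other tumor, and T-cell markers at 26.0 to 217 FPKM in α-KG + anti-PD1 tumors and at no more than 40.0 elsewhere.

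The comparison of anti-PD1 with vehicle asks what the antibody alone did. Only Il1rn passed the test, at 2.00 ± 0.43 higher (limma, adjusted p = 0.0463), from 6.19 ± 4.26 to 25.0 ± 7.24 FPKM. That is 1 gene of 9, where 0.467% of all genes tested were called higher. All 9 differences were positive, and 6 had an unadjusted p under 0.05, as did 16.6% of all genes. Over all genes 60 were called higher and 36 lower, and 15 and 14 after rescaling to the same sum. The Il1r2 difference was 1.16 ± 0.32 (adjusted p = 0.0925), that of Casp4 0.88 ± 0.26 (0.107) and that of Il1b 0.99 ± 0.50 (0.337). All 4 anti-PD1 tumors lay above all vehicle tumors for Il1a, Il1r2, Il1rn and Nlrp3, as did 5.00% of genes tested. The Il1rn call held in 11 of 25 alternatives, with adjusted p from 0.0188 to 0.194, and was lost without vehicle tumor 3 or 4, any 1 anti-PD1 tumor, or tumor 1, 3 or 4 of α-KG (0.0508 to 0.194). Without vehicle tumor 1, Casp4 (0.0495) and Gsdmd (0.0453) also passed. Of the neutrophil markers 1 of 12 was called higher, and of the monocyte and macrophage markers 4 of 13. The latter count was 6 after quantile normalization, 8 after centering and 0 after rescaling. All 13, and 7 of 8 pan-leukocyte markers, had an unadjusted p under 0.05. The list median of the 13 was 1.65 against 0.03 over all genes. Of the skeletal muscle markers 4 of 7 were called lower. The part of these cells in the Il1rn difference was not tested.

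The α-KG + anti-PD1 group was compared with vehicle, the contrast of both agents with neither. All 9 genes tested rose, where 34.9% of all genes tested were called higher. Il1b rose by 2.35 ± 0.50 (limma, adjusted p = 0.00209), Casp1 by 2.30 ± 0.39 (0.000599), Gsdmd by 2.29 ± 0.31 (0.000417) and Il1rn by 2.17 ± 0.43 (0.00131). Unlike in α-KG alone, Il1b, Casp1, Gsdmd and Il1rn differed from vehicle by similar amounts on the log2(FPKM + 1) scale. Their ratios of mean FPKM ran from 4.83 for Il1rn to 8.76 for Casp1. The rise was 2.04 ± 0.26 for Casp4 (0.000417), 1.60 ± 0.40 for Il1a (0.00537), 1.42 ± 0.31 for Nlrp3 (0.00244), 1.26 ± 0.26 for Aim2 (0.00149) and 1.12 ± 0.32 for Il1r2 (0.0119). All α-KG + anti-PD1 tumors lay above all vehicle tumors for 8 of the 9 (28.2% of genes tested did), with Il1r2 the exception. Quantile normalization ended the Il1r2 call (0.62, adjusted p = 0.107).
The background of this comparison depended on scaling, as the median difference over all genes was 0.15 as deposited, -0.11 after quantile normalization, -0.16 after centering on tumor medians and 0.34 after rescaling to the same sum. Calls over all genes were 4479 higher and 1348 lower as deposited, 2241 and 3994 after quantile normalization, 2197 and 4803 after centering, and 6294 and 250 after rescaling. All 13 monocyte and macrophage markers and all 8 T-cell markers tested were higher with the combination than in vehicle. Of 12 neutrophil markers 3 were higher, no larger a share than the 34.9% of all genes tested that were called higher. That count was 2 after quantile normalization and after centering, and 3 after rescaling. The 7 red cell and 7 skeletal muscle markers were all lower. The part of all these markers in the 9 rises was not tested.

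**Figure D3:**
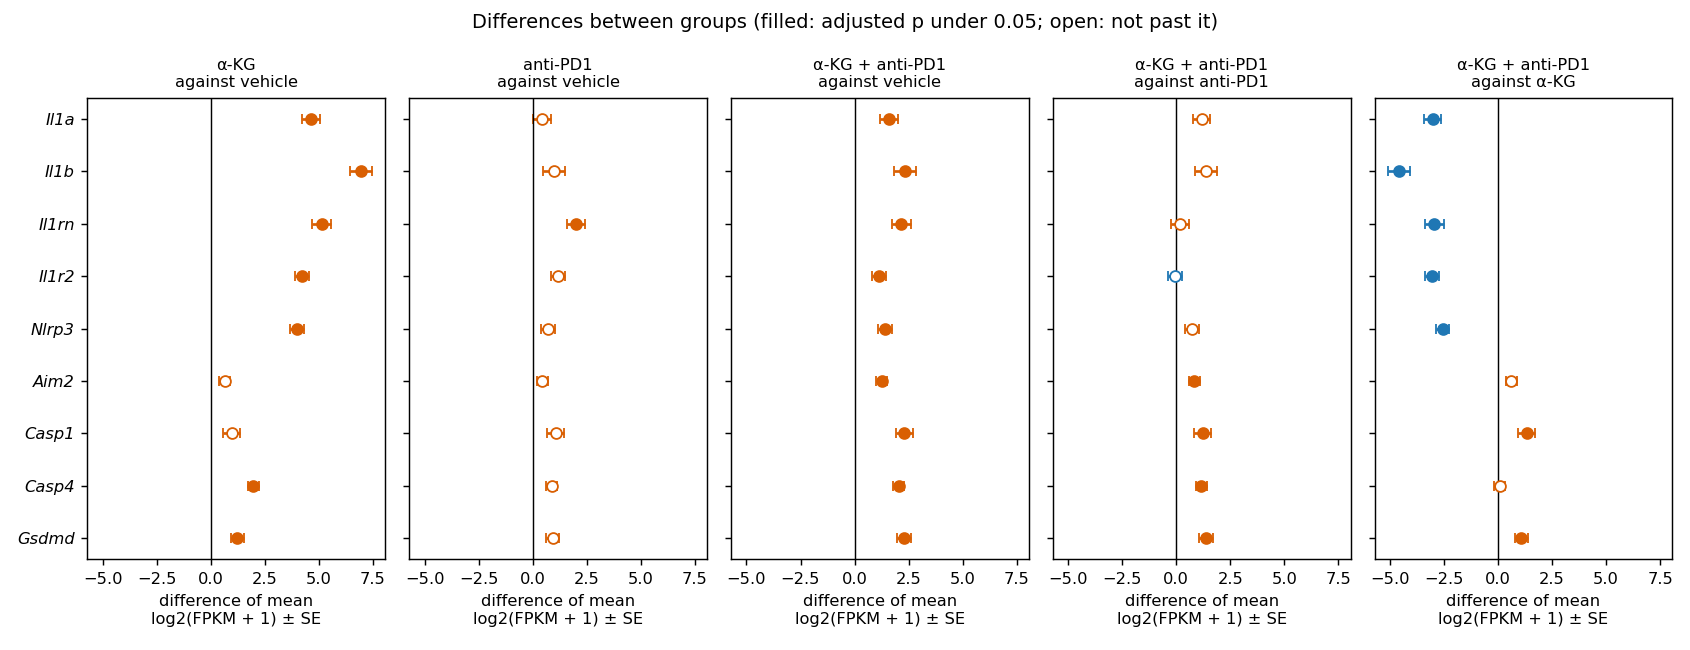
Differences between group means of log2(FPKM + 1) with SE for 9 genes in 5 comparisons, with filled points for an adjusted p under 0.05 and color for the sign. Il1b stands at 6.94 for α-KG against vehicle and at -4.59 for α-KG + anti-PD1 against α-KG, while Casp1 and Gsdmd stand at 1.33 and 1.07 in the latter.

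The DNA sensor and the effector genes were higher when α-KG was given with anti-PD1. Gsdmd was higher by 1.37 ± 0.31 in α-KG + anti-PD1 than in anti-PD1 (limma, adjusted p = 0.0157), Casp1 by 1.23 ± 0.39 (0.0463), Casp4 by 1.16 ± 0.26 (0.0152) and Aim2 by 0.82 ± 0.26 (0.0420). These were 4 of 9 genes tested, where 14.2% of all genes tested were called higher (1819 higher and 168 lower as deposited, 721 and 1082 after quantile normalization, 802 and 1968 after centering, 4198 and 36 after rescaling). The median over all genes was 0.12, and -0.071, -0.11 and 0.28 under the same scalings in turn. The α-KG + anti-PD1 tumors lay above all anti-PD1 tumors for Casp4, Gsdmd and Aim2, as did 13.6% of genes tested. Differences of 1.36 ± 0.50 for Il1b (0.0734), 1.17 ± 0.40 for Il1a (0.0586) and 0.72 ± 0.31 for Nlrp3 (0.117) did not pass. Those of Il1rn (0.17 ± 0.43, 0.809) and Il1r2 (-0.04 ± 0.32, 0.942) were within their errors, and the Il1r2 sign turned after rescaling to the same sum (0.10) and the Il1rn sign after centering (-0.066).
The calls of this comparison were near the threshold. Casp1 held in 9 of 25 alternatives, Aim2 in 13, and Casp4 and Gsdmd in 21 each, and all 4 were lost in the fit on only the groups compared and without anti-PD1 tumor 1, anti-PD1 tumor 4 or tumor 3 of the combination. Casp1 and Aim2 were lost without tumor 1 of the combination too (0.121 and 0.104), Casp1 without vehicle tumor 2 or 4 or any 1 α-KG tumor (0.0509 to 0.0592), and Aim2 without anti-PD1 tumor 2 or 3 or α-KG tumor 1 (0.0506 to 0.0591). Without tumor 2 of the combination, Il1a (0.0344), Il1b (0.0394) and Nlrp3 (0.0352) passed as well, Il1b also passed without anti-PD1 tumor 2 (0.0295) and Il1a without α-KG tumor 2 (0.0392). After rescaling to the same sum 6 genes were called higher, as Il1a (adjusted p = 0.0263) and Il1b (0.0317) passed too, and Il1a also passed with a pseudocount of 0.1 (0.0429). All 8 T-cell markers tested were higher in α-KG + anti-PD1 (26.0 to 217 FPKM summed) than in anti-PD1 (9.70 to 33.2). None of 12 neutrophil or 13 monocyte and macrophage markers was called by limma. An unadjusted p under 0.05 was found for 3 of the 12 and 5 of the 13. The list medians were 0.03 for neutrophil and 0.85 for monocyte and macrophage markers, against 0.12 over all genes. Of the 8 pan-leukocyte markers 2 were called higher and 5 had an unadjusted p under 0.05, and 5 of 7 red cell markers were called lower. After rescaling, 5 pan-leukocyte, 3 neutrophil and 3 monocyte and macrophage markers were called higher. The part of T cells, other leukocytes and red cells in the 4 calls was not tested.

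Adding anti-PD1 to α-KG was accompanied by lower Il1b, Il1r2, Il1a, Il1rn and Nlrp3. Il1b was lower by 4.59 ± 0.50 (written as -4.59, limma, adjusted p = 3.53e-05), a 21.2-fold ratio of means. The differences were -3.07 ± 0.32 for Il1r2 (2.93e-05), -3.03 ± 0.40 for Il1a (0.000179), -2.95 ± 0.43 for Il1rn (0.00034) and -2.57 ± 0.31 for Nlrp3 (8.5e-05). These 5 of 9 genes were called lower where 6.47% of all genes tested were, and their tumors did not overlap (5.68% of genes tested lay wholly lower). Casp1 rose by 1.33 ± 0.39 (0.0154) and Gsdmd by 1.07 ± 0.31 (0.0139). These 2 of 9 were no larger a share than the 31.8% of all genes tested that were called higher. For Casp1 the groups did not overlap, as for 29.7% of genes tested, but its call was lost without α-KG + anti-PD1 tumor 1 (adjusted p = 0.0506) or tumor 3 (0.0521) and with a pseudocount of 0.1 (0.0546).
The difference was 0.61 ± 0.26 for Aim2 (0.0694), which passed after rescaling (0.80, 0.0172) and without α-KG tumor 2 (0.0324) or tumor 4 of the combination (0.0352), and 0.08 ± 0.26 for Casp4 (0.832), and the Casp4 sign turned after quantile normalization (-0.22) and centering (-0.19). Over all genes, calls were 4086 higher and 832 lower as deposited, 2023 and 2020 after quantile normalization, 1758 and 3127 after centering, and 6829 and 368 after rescaling (medians 0.16, -0.042, -0.11 and 0.36), and all 5 of the lower genes held in 25 of 25 alternatives. All 12 neutrophil markers tested were lower in α-KG + anti-PD1 than in α-KG, all 8 T-cell markers were higher, all 7 red cell markers were lower, and of 13 monocyte and macrophage markers 3 were higher and 1 was lower. The part of these cells in the 7 calls was not tested.

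The interaction tests whether the effect of anti-PD1 differed with and without α-KG. It was negative for Il1b (-5.58 ± 0.71, limma, adjusted p = 0.00021), Il1rn (-4.96 ± 0.61, 0.000157), Il1r2 (-4.23 ± 0.46, 5.46e-05), Il1a (-3.47 ± 0.57, 0.00205) and Nlrp3 (-3.26 ± 0.44, 0.000396). Hence the ligands, both restraining genes and Nlrp3 were lowered by anti-PD1 in the presence of α-KG relative to its effect alone, 5 of 9 genes where 3.13% of all genes tested were called lower. All 5 held in 24 of 24 alternatives. The median interaction over all genes was 0.15 as deposited, 0.011 after quantile normalization, -0.049 after centering and 0.32 after rescaling, with 1027 higher and 402 lower, 569 and 559, 389 and 633, and 2110 and 284 called in turn. The interaction was not past the threshold for Casp4 (-0.80 ± 0.37, 0.155), Casp1 (0.26 ± 0.56, 0.787), Aim2 (0.17 ± 0.36, 0.781) or Gsdmd (0.15 ± 0.44, 0.843), and the small values of Casp1, Aim2 and Gsdmd changed sign under other settings. Of 12 neutrophil markers, 11 had a negative interaction too, as did 3 of 7 red cell markers, that of all 7 skeletal muscle markers was positive, and their part in these results was not tested.

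The balance of ligand and antagonist was described within each tumor, a ratio chosen after the values were seen and given with no test. Il1b divided by Il1rn was 0.313 to 0.651 in vehicle (median 0.518), 0.185 to 0.447 under anti-PD1 (0.217), 1.73 to 2.32 under α-KG (2.02) and 0.309 to 1.31 with the combination (0.618). The α-KG tumors were the only group in which Il1b exceeded Il1rn in all 4 tumors, and tumor 4 of α-KG + anti-PD1 was the 1 tumor outside that group where it did. Casp4 divided by Casp1 was 0.759 to 4.93 in vehicle, 0.713 to 1.22 under anti-PD1, 1.47 to 4.20 under α-KG and 0.595 to 1.79 with the combination. Casp4 exceeded Casp1 in all α-KG tumors, and the widest ratio was that of vehicle tumor 3, where Casp1 was at 0.14 FPKM.

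**Figure D4:**
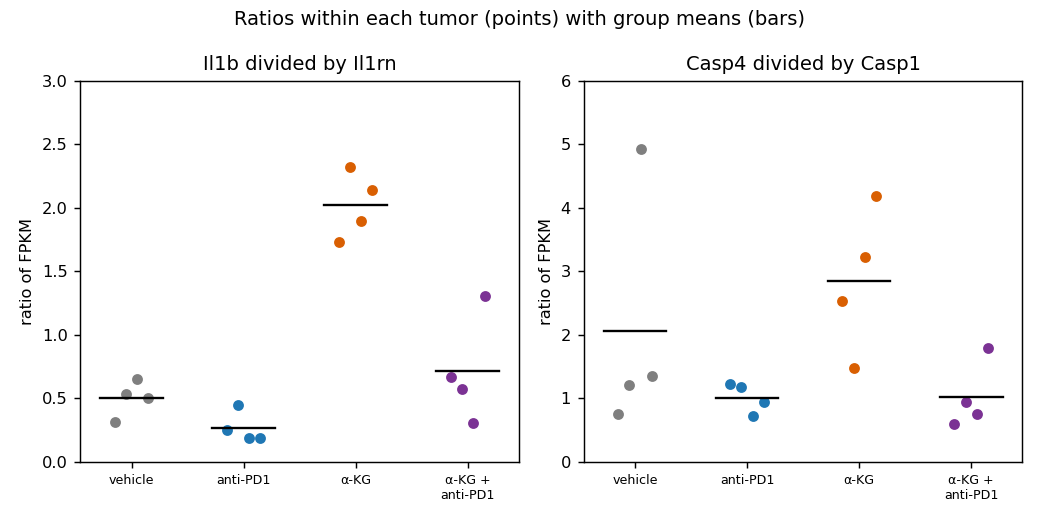
Il1b divided by Il1rn (left) and Casp4 divided by Casp1 (right), each a ratio of FPKM within a tumor on a linear axis, by group, with points for tumors and bars for group means. The Il1b to Il1rn ratio of α-KG tumors, 1.73 to 2.32, did not overlap that of the other groups, which reached 1.31.

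Other genes of the family and pathway were read from lists chosen with earlier results known. Over all genes tested, 8.40% were called higher in α-KG than in vehicle. Of 14 other IL-1 family and receptor genes, 12 were in the table and 7 were tested. In α-KG 4 of these were higher than in vehicle and none was lower, with a list median of 0.79 on the log2 scale. The largest difference was that of Il1f9 (also called Il36g), an IL-1 family cytokine, at 2.54 ± 0.59 FPKM in vehicle, 4.27 ± 1.26 under anti-PD1, 35.8 ± 12.1 under α-KG and 7.35 ± 1.20 with the combination. Il1f9 rose by 3.33 ± 0.22 in α-KG against vehicle (limma, adjusted p = 9.48e-08), differed by -2.09 ± 0.22 between α-KG + anti-PD1 and α-KG (2.98e-05), and had an interaction of -2.64 ± 0.31 (0.000127). Il1rap, the shared accessory receptor chain, rose by 0.81 in α-KG (0.0047), as did Il18rap (1.28, 0.017), a subunit of the IL-18 receptor, and the cytokine Il18 (0.79, 0.0113). In α-KG + anti-PD1 4 of the 7 were higher than in vehicle, where 34.9% of all genes tested were called higher. The largest rise was that of Il18bp (2.80, 0.00206), which encodes a binding protein that neutralizes IL-18. Il18bp was also higher than in α-KG (2.43, 0.00602). In anti-PD1 alone limma called 0 of the 7, with 3 at an unadjusted p under 0.05.

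All 14 genes of IL-1 receptor signaling were tested, and 5 were higher in α-KG than in vehicle and none lower, with a median of 0.15. Over all genes tested, 8.40% were called higher. Irak3, which encodes an inhibitory kinase of the pathway, rose by 2.24 ± 0.23 (limma, adjusted p = 7.58e-06), from 0.17 to 0.54 FPKM in vehicle tumors to 2.60 to 8.30 in α-KG tumors. The adaptor Myd88 rose by 1.33 (0.00223), the kinase Irak2 by 1.00 (0.000475) and Nfkb1 by 0.72 (0.0102). In α-KG + anti-PD1 8 of 14 were higher than in vehicle, where 34.9% of all genes tested were called higher. Against α-KG alone 5 of 14 were higher in the combination, where 31.8% of all genes tested were called higher. The list median was 0.19 against 0.16 over all genes. The largest rise was that of Ikbkb (0.80, 0.000333), which encodes a kinase that activates NF-kB. The 1 gene called lower was Irak3 (-1.34, 0.000989). The counts of 5 higher and 1 lower became 1 and 2 after quantile normalization, 1 and 3 after centering, and 7 and 1 after rescaling. The interaction was positive for Ikbkb (0.69, 0.0174) and Tab3 (0.46, 0.049) and negative for Irak3 (-1.70, 0.00603). Against anti-PD1 5 were higher and none lower, where 14.2% of all genes tested were called higher. These counts were 1 and 1 after quantile normalization and after centering, and 10 and 0 after rescaling. After quantile normalization the counts for α-KG against vehicle were 5 higher and 2 lower, and for α-KG + anti-PD1 against vehicle 5 higher and 3 lower. In anti-PD1 limma called 0 of 14, with 4 at an unadjusted p under 0.05.

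Of 25 other inflammasome sensors, adaptors and partners, 19 were tested. In α-KG 4 were higher than in vehicle and 1 was lower, with a list median of 0.26. Over all genes tested, 8.40% were called higher and 968 of 12850 lower. Mefv, which encodes the sensor pyrin, rose by 2.47 ± 0.27 (limma, adjusted p = 1.11e-05), Ifi204 by 1.81 (0.00886) and the NAIP family member Naip2 by 1.10 (0.00441). Pycard, the adaptor that joins sensors to caspase-1, differed by 0.26 ± 0.27 (0.558) and did not pass in any of the 5 comparisons. In α-KG + anti-PD1 12 of 19 were higher than in vehicle and 1 was lower, where 34.9% of all genes tested were called higher and 1348 of 12850 lower. The rises were led by the guanylate-binding protein Gbp2 (3.89, 0.00113) and the nucleic acid sensor Zbp1 (3.48, 0.000619). Gm12250 (2.91, 0.00139, also called Irgb10) and Gbp5 (2.64, 0.000534) came next. Gbp5 stood at 4.23 to 16.6 FPKM in α-KG + anti-PD1 and 1.10 to 1.99 in α-KG (1.89 higher, 0.00413). Against α-KG 9 of 19 were higher in the combination and 3 lower, where 31.8% and 6.47% of all genes tested were. These counts were 6 and 4 after quantile normalization, 6 and 5 after centering, and 11 and 3 after rescaling. Mefv was among the lower genes (-1.36, 0.00183), with an interaction of -1.90 (0.0069). In anti-PD1 limma called 0 of 19, with 8 at an unadjusted p under 0.05.

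NF-kB is a transcription factor that IL-1 receptors and other innate receptors activate. Of 17 NF-kB response genes 16 were tested, and all 16 were higher in α-KG than in vehicle, with a list median of 2.85 against -0.04 over all genes. Over all genes tested, 8.40% were called higher in this comparison. A gene could pass the filter through the α-KG tumors alone, so this count may depend on the filter. The neutrophil chemokine Cxcl2 rose by 6.96 ± 0.64 (limma, adjusted p = 1.87e-06), from 1.45 to 7.70 FPKM in vehicle tumors to 414 to 1232 in α-KG tumors. Saa3 rose by 6.90, Lcn2 by 6.49, Ptgs2, which encodes the prostaglandin synthase COX-2, by 5.24 and Tnf by 4.38. In α-KG + anti-PD1 11 of the 16 were lower than in α-KG and none was higher, where 6.47% and 31.8% of all genes tested were. A negative interaction was called for 11, where 3.13% of all genes tested were called lower. Against anti-PD1 9 of 16 were higher in the combination and none lower, where 14.2% of all genes tested were called higher. The 9 became 2 after quantile normalization, 4 after centering and 11 after rescaling. Against vehicle, 12 of 16 were higher in α-KG + anti-PD1, where 34.9% of all genes tested were called higher. Tnf (2.61, 0.000558) and Icam1 (2.54, 0.000417) led these. In anti-PD1 limma called 0 of 16, with 5 at an unadjusted p under 0.05. Lcn2 is also made by neutrophils, and the neutrophil marker sums given above apply to this list as well.

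**Figure D5:**
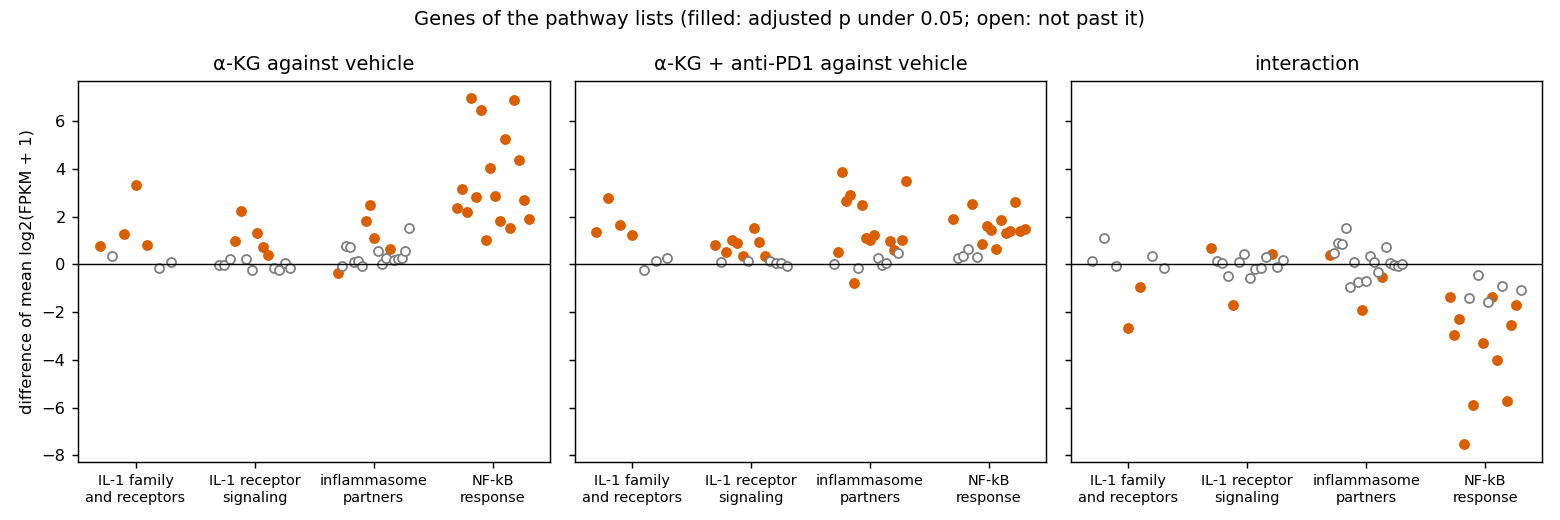
Differences of mean log2(FPKM + 1) for the tested genes of 4 pathway lists in α-KG against vehicle, α-KG + anti-PD1 against vehicle and the interaction, with filled points for an adjusted p under 0.05. All 16 NF-kB response genes lie above 0 in α-KG against vehicle, and 11 have a negative interaction past the threshold.

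Genes whose levels moved most like each member were found from deviations around the group means over the 16 tumors, which share libraries, so the correlations are a description. For Il1b these were Cd14 (r = 0.939), Clec4e (0.920) and Nlrp3 (0.910), all known in myeloid cells. Nlrp3 was most like Clec4e (0.950), Ptgs2 (0.933) and Acod1 (0.933). Il1a was most like Serpinb2 (0.895), Csf3 (0.880) and Ptgs2 (0.876), and Il1rn most like Rnf13 (0.910), Ccl4 (0.909) and Clec4d (0.909). Il1r2 shared its nearest genes with Il1b, namely Cd14 (0.894), Clec4e (0.893) and Nlrp3 (0.886).
Casp1 was most like Il2rg (0.979), Lpxn (0.974) and Ifi207 (0.971), and Gsdmd most like Prkcd (0.968), Hdac7 (0.967) and Tbc1d2b (0.964). Casp4 was most like Arhgap30 (0.943), Tank (0.933) and Ptpn12 (0.932), and Aim2 most like Gsap (0.895), S1pr4 (0.887) and Tnfrsf14 (0.884). Deviations around group means leave out differences between the groups. With these differences kept in, r was 0.304 for Il1rn and Rnf13, 0.427 for Casp4 and Arhgap30 and 0.684 for Casp4 and Tank, and higher for all other nearest genes. Between members, r was 0.917 for Casp1 and Gsdmd but 0.018 for Il1b and Casp1 and -0.13 for Il1b and Gsdmd. For Casp4 it was 0.615 with Il1b, 0.734 with Nlrp3, 0.745 with Il1r2, 0.831 with Il1rn, 0.683 with Casp1 and 0.628 with Gsdmd.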

How the data were processed

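Whole-tumor mRNA libraries (oligo-dT selection, dUTP second strand, DNBSEQ sequencing) were deposited by the authors as FPKM per gene. The submitters' processing notes name HISAT, Bowtie2 and mm10, and the program and annotation behind the FPKM are not given in the sources used here. No counts were used, so depth is unknown: in 22 sparse genes 29.2% of 106 low values lay within 0.15 of a whole step, where 30% would by chance. A gene was kept when 4 or more tumors reached 0.5 FPKM (12850 of 18929), so a gene high in a single group could be kept through that group alone. Tests used limma 3.58.1 (R 4.3.3) on log2(FPKM + 1), with 1 mean per group over all 16 tumors, eBayes with trend and Benjamini-Hochberg adjustment over all genes in each comparison (threshold 0.05). Fits were tested on simulated data. Exact permutation tests used scipy 1.17.1. With 4 tumors per group, p-values measure spread between tumors only.

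All 10 members were described. Of each pathway list, up to 5 genes past the threshold in a comparison were eligible to be named, in order of absolute change, along with the 3 genes most like each member, and Pycard was named after its values were seen. Members and lists were chosen with earlier results of these data known. List symbols not in the table (Il36a, Il36b, Il36g, Irgb10) were matched through RefSeq synonyms. Alternatives were other scalings, pseudocounts, filters, fits and leaving out each tumor.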

Additional observations from a re-analysis of the deposited data

Results flagged for a closer look

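The effect of anti-PD1 on 5 genes differed with and without α-KG, by the interaction in limma over all 12850 genes tested. The log2 difference of effects was -5.58 for Il1b (adjusted p = 0.00021), -4.96 for Il1rn (0.000157), -4.23 for Il1r2 (5.46e-05), -3.47 for Il1a (0.00205) and -3.26 for Nlrp3 (0.000396).

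In 3 of 40 sets of 4 tumors (10 genes in 4 groups) 1 tumor stood apart from the other 3 of its group, where chance gives about 1 in 20. Il1r2 was at 1.55 FPKM in vehicle tumor 2, with a gap to the nearest tumor that was 0.894 of the group's range, and at 7.33 FPKM in anti-PD1 tumor 2 (0.868). Il1r1 was at 0.33 FPKM in vehicle tumor 4 (0.967), a level below the filter on low values.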

How the results depend on the processing

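The count of genes called in anti-PD1 against vehicle was 1. It was 0 after rescaling to the same sum, with no filter, with only the groups compared, with no trend and with the replicate block, 2 with a pseudocount of 0.1, and 0 to 3 with 1 tumor left out (0 without vehicle tumor 3 or 4, any anti-PD1 tumor, or α-KG tumor 1, 3 or 4, and 3 without vehicle tumor 1). The count in α-KG + anti-PD1 against anti-PD1 was 4. It was 2 after quantile normalization, after centering and with no filter, and 0 with only the groups compared. It was 6 after rescaling to the same sum and 3 with a pseudocount of 0.1. With 1 tumor left out it was 0 to 7 (0 without anti-PD1 tumor 1 or 4 or tumor 3 of the combination, 2 without tumor 1 of α-KG or of the combination, and 7 without tumor 2 of the combination). The other 4 counts stayed within 1.5 times of 7, 9, 7 and 5 in every alternative run. Causes of these shifts were not tested. Over genes and comparisons, 1250 values kept direction and side of the threshold, 56 lost the call, 17 gained it and 18 changed sign.

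None of the sign changes had been past the threshold. Il1r2 in α-KG + anti-PD1 against anti-PD1 was 0.10 after rescaling and ranged from -0.19 to 0.28 with 1 tumor left out, and Il1rn there was -0.066 after centering and from -0.011 to 0.54 with 1 tumor left out. Casp4 in α-KG + anti-PD1 against α-KG was -0.22 after quantile normalization, -0.19 after centering and from -0.042 to 0.26 with 1 tumor left out. In the interaction, Casp1 was -0.26 with a pseudocount of 0.1 and from -0.0097 to 0.53 with 1 tumor left out. Gsdmd was -0.043 after centering, -0.036 with that pseudocount and from -0.065 to 0.46 with 1 tumor left out. Aim2 was -0.022 after centering.

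The replicate numbers did not pair the tumors: deviations of the 24 same-numbered pairs correlated at -0.64 to 0.41, and in 10 of 48 combinations of a tumor with another group the tumor correlated best with its own number there. With the replicate block 7, 0, 9, 4, 7 and 5 genes were called in the 6 tests, and the 4 in α-KG + anti-PD1 against anti-PD1 were Il1a, Casp4, Gsdmd and Aim2. Values without counts leave the precision of low genes such as Il1r1 and Nlrp3 unknown.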
